A study of Homo sapiens with 160 samples.

Results

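The genes described here are 10 regulators of apoptosis, of which BCL2, BCL2L1, MCL1, BCL2L11, BMF, BBC3, PMAIP1, BIK and HRK belong to the BCL2 family and BCL6 does not. They were taken from the deposited table by gene symbol, 10 of 29273 genes, and not by how they responded. The cells were BEAS-2B, an immortalised human bronchial epithelial line labelled wild type, grown to confluence and left overnight without serum. They received all 3 agents together, each of the 3 possible pairs, mometasone alone (100 nM), indacaterol alone (100 nM), carbachol alone (10 µM) or vehicle, for 1, 2, 6 or 18 h. Mometasone is a glucocorticoid, indacaterol is a β2-adrenoceptor agonist that raises cyclic AMP, and carbachol is a muscarinic agonist. Of 160 labelled samples, 150 libraries were used, in 32 groups. Of these, 24 had 5 libraries, 6 had 4, and the 18 h groups of mometasone alone and of the triple combination had 3.

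BCL2 family proteins decide whether the outer mitochondrial membrane is opened to release cytochrome c, the step that starts the caspase cascade. BCL2, BCL-XL (encoded by BCL2L1) and MCL1 hold the pore-forming members BAX and BAK1 in check, and the BH3-only proteins BIM (BCL2L11), BMF, PUMA (BBC3), NOXA (PMAIP1), BIK and HRK bind and block these survival proteins. BCL6 is a zinc-finger transcriptional repressor, known best in germinal-centre B cells. Glucocorticoids are known to raise BIM and kill lymphoid cells, whereas airway epithelial cells are largely spared.

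The deposited values are 1 normalised number per gene and library, and no counts were given, so depth is unknown and precision rests on the spread between libraries. The values summed to between 847289 and 1498421 per library, and mitochondrially encoded genes held 5.88% to 28.3% of that sum (median 11%), with 6 libraries over 20%. The keratin genes KRT8 and KRT18 were at 101 or more in all libraries, and KRT7 ran from 1.78 to 104. The epithelial markers EPCAM, KRT19 and CDH1 reached at most 0.85, 2.18 and 7.84. The collagen gene COL1A1 and the receptor gene PDGFRB, which usually mark fibroblasts, were at 272 or more and 66.0 or more. The fibroblast markers COL1A2 and DCN, in contrast, reached at most 3.48 and 4.33. The T-cell gene CD3D was listed at 0 in all 150 libraries, and the B-cell gene MS4A1 was at 0.22 or less. TSC22D3 (GILZ), a standard glucocorticoid-induced gene, stood higher in all libraries with mometasone than in any without it at each of the 4 times, and NR4A3, a cyclic AMP-induced gene, did so for indacaterol at 1, 2 and 6 h. Nothing in the labels says that replicates came from separate cultures, so p-values measure a spread that may be technical. In bulk RNA, fewer cells of a type and less RNA per cell cannot be told apart.

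Each change below is a difference of mean log2(value + 1) with its standard error, and it understates the change of genes with low values. An averaged effect sets the 4 treatments that contain an agent against the 4 that lack it, within a time. Adjusted p-values are from limma with Benjamini-Hochberg adjustment over 14827 genes tested, and "rose" or "fell" is used of genes with an adjusted p under 0.05. Of the 10 genes 9 were tested, each of them at 1 or more in at least 131 libraries, and BIK was too low. Where single groups are said below to lie apart, the share of all genes that separate likewise is not given. Such statements describe the values only.

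Mometasone moved both sides of the family. The survival genes BCL2L1 and MCL1, the BH3-only gene HRK and BCL6 rose at all 4 times, BMF rose from 2 h, PMAIP1 rose at 1, 2 and 6 h, and BCL2L11 rose only at 18 h, while BCL2 fell at 6 and 18 h and BBC3 fell at 1 h. At 1 h, 5 of the 9 tested genes rose and 1 fell, beside 1.8% and 0.836% of all genes tested. At 2 h, 6 rose and 0 fell, where 3.59% of all genes fell and 4.98% rose. At 6 h, 6 rose and 1 fell, beside 18.4% and 14.6%. At 18 h, again 6 rose and 1 fell, beside 17.6% and 13.8%. The median change of the 9 genes was 0.22, 0.63, 0.54 and 0.46 at 1, 2, 6 and 18 h, against 0.01, 0.003, 0.02 and 0.05 over all genes.

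In the fit without a replicate block, most changes with indacaterol came early. At 1 h BCL2L11, PMAIP1, HRK and BCL6 rose and MCL1 fell, so that 4 of 9 rose beside 3.28% of all genes and 1 fell beside 1.23%. At 2 h the rising genes were again BCL2L11, PMAIP1, HRK and BCL6 (8.13% of all genes rose), and BCL2L1 fell with MCL1 (5.41% of all genes fell). At 6 h BCL2L11 rose and BCL2L1 fell, beside 6.85% and 6.27% of all genes. At 18 h none of the 9 passed, beside 1.6% of all genes in either direction. Of the 9, 2 had an unadjusted p under 0.05 at 18 h. With the replicate number as a block, BCL6, HRK and PMAIP1 also rose at 6 h. With it, at 18 h BCL6 (0.40, adjusted p = 6.09e-05) and BCL2L11 (0.25, adjusted p = 0.0126) rose. BCL2L1 fell at 18 h with the block (-0.16, adjusted p = 0.00551). The median change of the 9 genes was -0.003, 0.13, -0.01 and 0.002 over the 4 times, against 0.004, 0.008, 0.007 and -0.001 over all genes. For carbachol none of the 9 passed at any time in limma without a block, beside 0.189%, 0.121%, 0.0% and 0.0% of all genes. At 1 h 3 of the 9 had an unadjusted p under 0.05. With the replicate number as a block, BCL6, MCL1 and PMAIP1 rose with carbachol at 1 h (adjusted p = 0.000124, 0.000824 and 0.0215). For the late minus early difference of carbachol 0 of the 9 passed in limma without a block, beside 0.108% of all genes. Of these, 0 had an unadjusted p under 0.05.

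Set against vehicle 1 treatment at a time, 36 tests (9 genes at 4 times) gave 17 calls with all 3 agents, beside 9.29% of all tests. There were 19 calls with mometasone plus indacaterol (10.2%), 20 with mometasone plus carbachol (5.75%) and 16 with mometasone (5.29%). Indacaterol plus carbachol gave 9 (2.23%) and indacaterol 4 (1.81%), or 14 and 12 with the replicate number as a block. Carbachol gave 0 in limma (0.0287%), and 0 of its 36 tests had an unadjusted p under 0.05. The comparisons share their vehicle libraries.

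**Figure D1:**
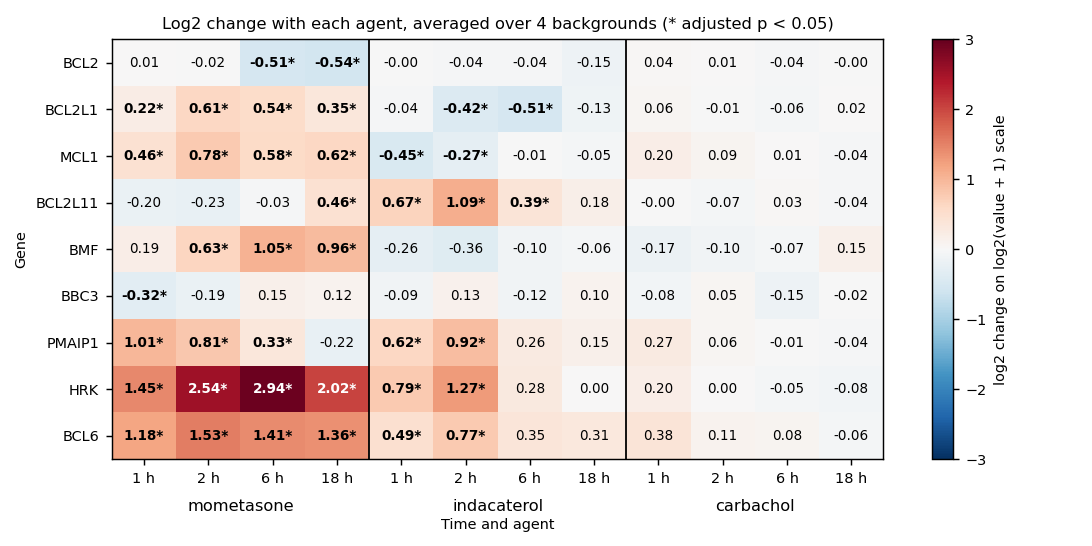
Averaged effect of each agent on the 9 tested genes at each time, as a difference of mean log2(value + 1) between treatments with and without the agent. Colour runs from lower (blue) to higher (red), and an asterisk marks an adjusted p under 0.05 (limma, no replicate block). HRK and BCL6 stand out in the mometasone columns at all 4 times, HRK (0.79 and 1.27) and BCL2L11 (0.67 and 1.09) have the highest indacaterol values at 1 and 2 h, and no carbachol cell carries an asterisk.

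The promoters shown are those of the 4 genes that rose with indacaterol at both 1 and 2 h, since cyclic AMP is known to act through a promoter element. The window from 250 bases before to 50 bases after the start of each is from RefSeq on GRCh38.p14, 5′ to 3′ on the gene's own strand. HRK lies at chr12:116881392-116881691 (minus strand), PMAIP1 at chr18:59899746-59900045 (plus), BCL2L11 at chr2:111120664-111120963 (plus), and BCL6 at chr3:187736452-187736751 (minus, the downstream one of its 2 listed starts). Capitals mark TGACG or its reverse complement CGTCA, the core letters of a cyclic AMP response element, and TGTTCT or its reverse complement AGAACA, those of 1 arm of a glucocorticoid receptor site.
HRK: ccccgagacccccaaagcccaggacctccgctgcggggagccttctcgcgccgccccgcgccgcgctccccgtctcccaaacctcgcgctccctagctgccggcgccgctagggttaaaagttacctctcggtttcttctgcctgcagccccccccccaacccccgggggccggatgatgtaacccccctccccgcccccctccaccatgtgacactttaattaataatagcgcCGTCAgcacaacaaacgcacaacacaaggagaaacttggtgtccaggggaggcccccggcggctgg
PMAIP1: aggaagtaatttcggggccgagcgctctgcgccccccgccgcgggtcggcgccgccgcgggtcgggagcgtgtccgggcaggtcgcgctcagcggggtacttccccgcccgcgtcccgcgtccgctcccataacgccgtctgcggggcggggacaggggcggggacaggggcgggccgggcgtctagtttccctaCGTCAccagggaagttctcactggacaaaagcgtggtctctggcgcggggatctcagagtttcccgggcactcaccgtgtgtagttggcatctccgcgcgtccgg
BCL2L11: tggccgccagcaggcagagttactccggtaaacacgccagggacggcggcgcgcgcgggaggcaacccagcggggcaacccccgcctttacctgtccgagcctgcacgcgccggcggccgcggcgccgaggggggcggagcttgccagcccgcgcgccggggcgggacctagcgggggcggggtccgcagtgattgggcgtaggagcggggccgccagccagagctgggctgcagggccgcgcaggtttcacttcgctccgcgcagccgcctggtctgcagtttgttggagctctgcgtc
BCL6: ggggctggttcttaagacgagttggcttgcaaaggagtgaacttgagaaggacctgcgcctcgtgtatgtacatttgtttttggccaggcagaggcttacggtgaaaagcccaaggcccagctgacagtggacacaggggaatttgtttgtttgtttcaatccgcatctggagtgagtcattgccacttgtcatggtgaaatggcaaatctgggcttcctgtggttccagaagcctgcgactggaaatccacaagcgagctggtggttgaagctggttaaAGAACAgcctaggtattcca

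Both strands were searched for 5 motifs in these windows and in all 35116 promoters of the table. TGACG was held by 24.6% of all promoters, and the full palindrome TGACGTCA, which contains it, by 1.85%. The spaced glucocorticoid receptor motif ACANNNTGT was held by 5.37% and TGTTCT by 14.8%. The E-box letters CACGTG were held by 7.26%. HRK had TGACG beginning 16 bases before its start and PMAIP1 55 bases before it. The BCL2L11 window held none of the 5 motifs, nor did that of the upstream BCL6 start, and the downstream BCL6 window held TGTTCT 31 bases after the start. TGACG also lay 57 bases before the start of BMF, 201 before that of BCL2L1 and 225 before that of BCL2, genes that did not rise with indacaterol. Promoter entries were found for 8 of the 10 genes. A match describes letters only.

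BCL2L1, which encodes BCL-XL (chr20:31664452-31723989, minus strand, GENCODE 29 on GRCh38), rose with mometasone and fell with indacaterol at 2 and 6 h. At 2 h its values were 111, 138, 132, 129 and 133 with mometasone plus indacaterol, 158, 182, 167, 163 and 197 with mometasone, 86.1, 94.4, 90.1, 78.7 and 90.7 with indacaterol, and 108, 113, 108, 98.1 and 123 with vehicle. All 5 mometasone libraries lay above all 5 vehicle libraries, and all 5 indacaterol libraries lay below all 5 vehicle libraries. At 6 h the means were 88.1 ± 6.90 with both agents, 142 ± 13.4 with mometasone, 67.0 ± 6.49 with indacaterol and 88.0 ± 8.82 with vehicle (SD, n = 5 each). With both agents the 6 h mean stood within 0.112 of vehicle, while mometasone alone was 53.6 above it and indacaterol alone 21.0 below it. On the log2 scale the averaged mometasone effect was 0.61 ± 0.06 at 2 h (adjusted p = 1.28e-16) and 0.54 ± 0.06 at 6 h (adjusted p = 3.04e-14), and the averaged indacaterol effect was -0.42 ± 0.06 at 2 h (adjusted p = 3.33e-09) and -0.51 ± 0.06 at 6 h (adjusted p = 2.39e-12). The interaction of the agents, the indacaterol effect with mometasone minus that without it, was -0.22 ± 0.12 at 6 h and not significant (adjusted p = 1.0), so no departure from additive log2 effects was detected.

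The earliest BCL2L1 rise was uneven. At 1 h the mometasone libraries held 96.7, 153, 91.4 and 145 in replicates 1 to 4, against 105, 108, 93.4, 103 and 121 in replicates 1 to 5 of vehicle. Replicates 2 and 4 carried the difference, and the averaged effect of 0.22 ± 0.06 (adjusted p = 0.0202) was 0.15 without replicate 2 (adjusted p = 0.865) and 0.13 without replicate 4 (adjusted p = 0.83). TSC22D3 showed the same unevenness at 1 h, with 208 and 246 in replicates 2 and 4 of mometasone against 53.7 and 76.9 in replicates 1 and 3. What set these libraries apart was not tested.

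MCL1, a short-lived survival protein whose transcript turns over quickly (chr1:150574551-150579738, minus strand), rose with mometasone and fell early with indacaterol. Its 2 h values were 121, 136, 166, 142 and 93.3 with mometasone plus indacaterol, 129, 155, 208, 146 and 99.9 with mometasone, 53.9, 65.6, 86.1, 86.8 and 48.6 with indacaterol, and 80.0, 95.0, 121, 105 and 58.2 with vehicle. The groups overlapped, although replicate 5 was the lowest in each of the 4. The averaged mometasone effect was 0.46 ± 0.10, 0.78 ± 0.10, 0.58 ± 0.10 and 0.62 ± 0.11 at 1, 2, 6 and 18 h, with adjusted p-values of 0.000464, 2.01e-11, 1.71e-07 and 1.06e-06. At 1 h it was 0.43 without replicate 2 (adjusted p = 0.0577) and 0.41 without replicate 4 (adjusted p = 0.0531). Indacaterol lowered it by an averaged -0.45 ± 0.10 at 1 h (adjusted p = 0.000522) and -0.27 ± 0.10 at 2 h (adjusted p = 0.0377). The 2 h difference kept its size without replicate 1, 2, 3 or 4 (-0.28, -0.28, -0.24 and -0.30) but missed the threshold (adjusted p between 0.097 and 0.169). So it did without the libraries over 20% mitochondrial (-0.24, adjusted p = 0.0997).

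BCL2 itself, the founding survival gene (chr18:63123346-63320128, minus strand), was low in these cells at 0.66 to 4.16. At 6 h it held 1.21, 0.94, 1.74, 1.33 and 1.06 with mometasone, against 2.71, 1.61, 2.38, 2.00 and 1.68 with vehicle. Across backgrounds, libraries with mometasone ran from 0.66 to 1.87 (median 1.05, n = 20) and those without it from 1.43 to 2.73 (median 1.99, n = 20), an overlap at the edges. Its averaged mometasone effect was 0.01 ± 0.09 and -0.02 ± 0.09 at 1 and 2 h, then -0.51 ± 0.09 at 6 h (adjusted p = 3.22e-07) and -0.54 ± 0.10 at 18 h (adjusted p = 2.05e-06). The late effects (6 and 18 h) were lower than the early ones (1 and 2 h) by a tested difference of -0.52 ± 0.09 (adjusted p = 8.95e-07). Of the 9 genes, 6 had such a difference for mometasone, beside 26.8% of all genes.

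**Figure D2:**
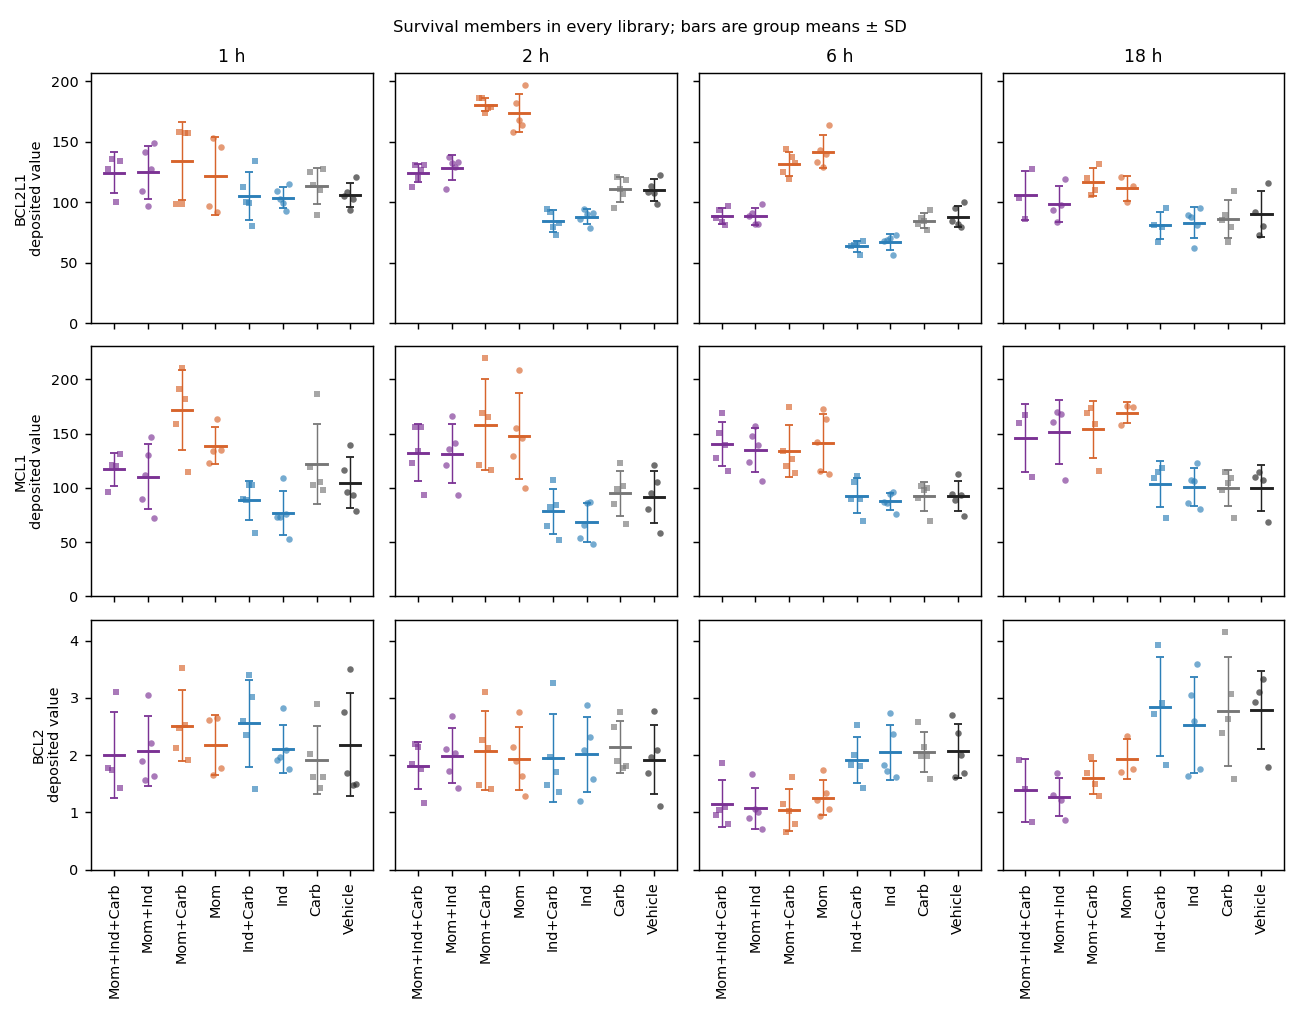
BCL2L1, MCL1 and BCL2 in every library (points) by treatment and time, as deposited values on linear axes that start at 0, with group means and SD as bars. Squares are treatments with carbachol. At 6 h BCL2L1 averages 142 with mometasone, 67.0 with indacaterol and 88.1 with both, against 88.0 with vehicle.

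HRK, a BH3-only gene known mainly from neurons (chr12:116856144-116881441, minus strand), responded most to the combination of mometasone and indacaterol. At 2 h its values were 35.1, 36.8, 47.9, 44.7 and 26.9 with both agents, 9.36, 5.81, 6.52, 6.91 and 5.53 with mometasone, 2.70, 1.74, 1.73, 2.09 and 1.40 with indacaterol, and 1.84, 1.73, 1.82, 1.17 and 1.13 with vehicle. The lowest library with both agents exceeded the highest with mometasone alone, and the lowest with mometasone alone exceeded every indacaterol and vehicle library, while the indacaterol and vehicle libraries overlapped. The means were 38.3 ± 8.30, 6.83 ± 1.52, 1.93 ± 0.494 and 1.54 ± 0.357 in that order (SD, n = 5 each). The excess over vehicle was 36.7 with both agents, against 5.29 with mometasone and 0.394 with indacaterol, which sum to 5.68. With carbachol also present the 2 h means were 31.9 ± 5.48 for all 3 agents, 6.69 ± 0.949 for mometasone plus carbachol and 2.57 ± 0.906 for indacaterol plus carbachol, against 1.56 ± 0.501 for carbachol alone.

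The departure from additivity was tested directly. The interaction of mometasone and indacaterol on HRK was 1.53 ± 0.23 at 1 h (adjusted p = 1.9e-06), 1.87 ± 0.22 at 2 h (adjusted p = 1.47e-10), 1.21 ± 0.22 at 6 h (adjusted p = 0.000117) and 0.39 ± 0.25 at 18 h (adjusted p = 0.986). Without a replicate block, HRK was the 1 gene of the 9 that passed, with a higher interaction at 1, 2 and 6 h. Of all genes, 0.614%, 1.17%, 0.735% and 0.121% were called in either direction at the 4 times. With the replicate number as a block, BBC3 was also higher at 1 h (0.43, adjusted p = 0.00392). The block also gave lower interactions of BCL2, BCL2L11 and BCL6 at 1 h and of BBC3, BCL2L11 and BCL6 at 2 h. BMF was lower with the block at 6 h. In the treatments without carbachol the interaction was 1.41, 2.12, 1.37 and 0.33 at the 4 times, and with carbachol it was 1.65, 1.63, 1.04 and 0.45. Over the 4 times together a higher interaction was called for 0.118% and 1.46% of all gene tests without and with carbachol. These shares differed between times. With carbachol, 805 of 14827 genes had a higher interaction at 1 h, against 33, 22 and 5 at 2, 6 and 18 h. Without carbachol the numbers were 3, 38, 22 and 7 at 1, 2, 6 and 18 h. The value at 6 h with carbachol did not pass (adjusted p = 0.257). With the libraries of each time fitted alone, the 1 h interaction did not pass either (adjusted p = 0.0773).

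HRK values were also followed over the times. Against 0.83 to 2.37 in vehicle over all times, mometasone alone averaged 2.97 ± 1.30 at 1 h (n = 4), 6.83 ± 1.52 at 2 h (n = 5), 11.6 ± 1.79 at 6 h (n = 5) and 7.81 ± 0.188 at 18 h (n = 3). With indacaterol added the means were 12.2 ± 9.22, 38.3 ± 8.30, 22.2 ± 2.66 (n = 5 each) and 8.78 ± 1.58 (n = 4). The highest of the 4 means came at 6 h with mometasone alone and at 2 h with both agents. The 1 h libraries with both agents were spread, at 6.54, 18.3, 4.0, 25.3 and 6.60, replicates 2 and 4 again being the high ones. Indacaterol alone gave a change of HRK against vehicle of 0.20 ± 0.22 at 2 h (adjusted p = 1.0) and -0.49 ± 0.22 at 6 h (adjusted p = 0.468), neither of which passed. At 6 h HRK was at 0.80, 0.81, 1.73, 0.72 and 0.64 with indacaterol, against 0.98, 1.87, 1.92, 2.37 and 1.46 with vehicle, so that 4 of the 5 indacaterol libraries lay below all vehicle libraries. The averaged indacaterol effects of 0.79 and 1.27 at 1 and 2 h are averages over these unequal effects with and without mometasone. Libraries with mometasone and those without it did not overlap at 2 h (5.53 to 47.9 against 1.08 to 3.88), 6 h (8.73 to 25.7 against 0.64 to 2.37) or 18 h (4.08 to 10.5 against 0.74 to 2.14), beside 0.452%, 2.5% and 3.8% of all genes.

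**Figure D3:**
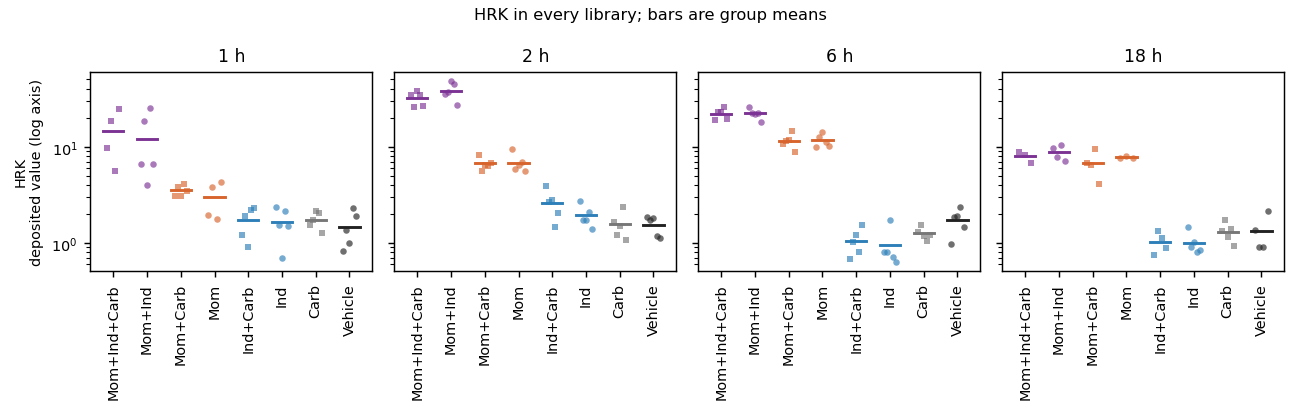
HRK in every library (points) by treatment and time on a log axis, with group means as bars; squares are treatments with carbachol. At 2 h the 10 libraries with mometasone and indacaterol lie between 25.9 and 47.9, and the 10 with mometasone but no indacaterol between 5.53 and 9.36.

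BCL2L11, which encodes BIM, a BH3-only protein that binds every survival member (chr2:111119378-111168447, plus strand), was the gene of the family most raised by indacaterol alone at 2 h among the 9 tested. Its 2 h values were 19.8, 21.6, 22.2, 19.4 and 15.0 with mometasone plus indacaterol, 9.46, 12.4, 14.1, 10.4 and 6.69 with mometasone, 22.3, 26.4, 40.9, 31.2 and 25.2 with indacaterol, and 9.99, 10.1, 12.03, 11.2 and 7.57 with vehicle. The 20 libraries with indacaterol (14.7 to 40.9) did not overlap the 20 without it (6.69 to 14.1), beside 0.755% of all genes. The averaged effect of indacaterol was 0.67 ± 0.10 at 1 h (adjusted p = 3.88e-08), 1.09 ± 0.10 at 2 h (adjusted p = 9.89e-19), 0.39 ± 0.10 at 6 h (adjusted p = 0.0015) and 0.18 ± 0.11 at 18 h (adjusted p = 0.725). With the replicate block the 18 h effect passed (0.25, adjusted p = 0.0126). The late effects of indacaterol were lower than its early ones by -0.60 ± 0.10 (adjusted p = 1.46e-06). This was 1 of 4 such differences among the 9 genes for indacaterol, beside 10.4% of all genes.

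The rise of BCL2L11 was smaller where mometasone was present. Its 2 h mean was 19.6 ± 2.83 with both agents, against 29.2 ± 7.30 with indacaterol (SD, n = 5 each), and all 5 libraries with both agents lay below all 5 with indacaterol. The interaction was -0.49 ± 0.20 at 1 h (adjusted p = 0.242) and -0.48 ± 0.19 at 2 h (adjusted p = 0.369), neither of which passed. With the replicate block both passed (adjusted p = 0.00293 and 0.00569). Mometasone had an averaged effect of -0.20, -0.23 and -0.03 at 1, 2 and 6 h, none of them significant without the block. With the replicate block BCL2L11 was lower at 1 h (-0.24, adjusted p = 0.0119) and 2 h (-0.23, adjusted p = 0.00286). Without the block the effect at 18 h was 0.46 ± 0.11 (adjusted p = 0.000416). At 18 h the libraries with mometasone ran from 9.27 to 18.0 (median 15.6, n = 14) and those without it from 4.72 to 15.1 (median 10.7, n = 18). The late effect of mometasone exceeded its early effect by 0.43 ± 0.10 (adjusted p = 0.000354).

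PMAIP1, which encodes NOXA, a BH3-only protein that binds MCL1 (chr18:59899948-59904306, plus strand), rose early with either agent. At 2 h its values were 17.7, 19.3, 18.6, 19.2 and 13.3 with mometasone plus indacaterol, 8.18, 9.48, 10.3, 11.8 and 6.23 with mometasone, 7.21, 8.80, 9.42, 11.7 and 8.41 with indacaterol, and 4.92, 4.55, 5.46, 5.53 and 2.31 with vehicle. Every library of each treated group lay above every vehicle library, and every library with both agents lay above every library with mometasone or indacaterol alone. The averaged mometasone effect declined over the times, being 1.01 ± 0.11 at 1 h (adjusted p = 1.02e-12), 0.81 ± 0.11 at 2 h (adjusted p = 6.98e-10), 0.33 ± 0.11 at 6 h (adjusted p = 0.0121) and -0.22 ± 0.12 at 18 h (adjusted p = 0.188). With the replicate block the 18 h effect passed (-0.25, adjusted p = 0.0065). The late effect of mometasone was lower than its early effect by -0.85 ± 0.11 (adjusted p = 3.28e-10). At 6 h it was 0.31 without replicate 2 (adjusted p = 0.0761) and 0.29 without replicate 4 (adjusted p = 0.0773), similar in size but past the threshold in neither case. Indacaterol raised it by 0.62 ± 0.11 at 1 h (adjusted p = 1.17e-05) and 0.92 ± 0.11 at 2 h (adjusted p = 2.81e-12), and the interaction was 0.08 ± 0.22 at 2 h (adjusted p = 0.934).

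BMF, a BH3-only protein held on the cytoskeleton (chr15:40087890-40108892, minus strand), rose with mometasone from 2 h on. At 6 h its values were 8.36, 5.88, 9.72, 4.99 and 8.06 with mometasone, against 3.08, 2.13, 2.04, 0.96 and 1.89 with vehicle, and the groups did not overlap. With indacaterol added to mometasone they were 4.62, 3.57, 9.10, 2.72 and 4.60. The averaged mometasone effect was 0.63 ± 0.13 at 2 h (adjusted p = 0.000156), 1.05 ± 0.13 at 6 h (adjusted p = 4.8e-11) and 0.96 ± 0.15 at 18 h (adjusted p = 8.33e-08). The late effect exceeded the early one by 0.59 ± 0.14 (adjusted p = 0.000428). Indacaterol had an averaged effect of -0.36 ± 0.13 at 2 h that missed the threshold (adjusted p = 0.0588). The interaction at 6 h was -0.81 ± 0.27 (adjusted p = 0.251). With the replicate block both passed (adjusted p = 0.000205 and 0.000356).

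BBC3, which encodes PUMA, a p53-induced BH3-only protein (chr19:47220822-47232766, minus strand), moved little. At 1 h it held 10.5, 10.4, 12.7 and 10.1 with mometasone, against 9.05, 14.3, 17.8, 13.5 and 17.7 with vehicle, and the groups overlapped in vehicle replicate 1. The averaged effect of -0.32 ± 0.10 was just past the threshold (adjusted p = 0.0484). It did not pass in 9 of 11 alternatives, among them leaving out any of replicates 1 to 5 (adjusted p between 0.051 and 0.304). Its late mometasone effect exceeded its early one by 0.39 ± 0.10 (adjusted p = 0.000867). With the replicate block BBC3 also fell at 2 h (-0.19, adjusted p = 0.00923) and rose at 6 h (0.15, adjusted p = 0.0191).

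BIK (chr22:43110748-43129712, plus strand) was between 0 and 0.94 and listed at 0 in 34 libraries. At 2 h it was at 0.68, 0.50, 0.31, 0.93 and 0.94 with indacaterol, against 0.20, 0.12, 0, 0.13 and 0.47 with vehicle. With carbachol added to indacaterol it was at 0.30, 0, 0.33, 0.33 and 0.12. The indacaterol libraries reached the highest BIK values of any group but overlapped vehicle, and no test was made.

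BCL6 (chr3:187721377-187745727, minus strand) rose with mometasone at all 4 times and with indacaterol at 1 and 2 h. At 2 h its values were 35.3, 36.7, 46.2, 32.6 and 31.7 with mometasone plus indacaterol, 28.1, 29.02, 33.9, 35.3 and 20.8 with mometasone, 11.8, 15.1, 16.2, 15.1 and 9.56 with indacaterol, and 6.54, 5.27, 5.67, 5.81 and 3.67 with vehicle. The lowest library of each treated group lay above the highest of vehicle. The averaged mometasone effect was 1.18 ± 0.13, 1.53 ± 0.13, 1.41 ± 0.13 and 1.36 ± 0.15 at 1, 2, 6 and 18 h, with adjusted p-values of 2.37e-12, 8.52e-20, 3.67e-18 and 2.98e-14. Its late effect did not differ from its early one by the test (0.03 ± 0.14, adjusted p = 0.89). At 6 h the 20 libraries with mometasone (18.0 to 54.4, median 32.2) did not overlap the 20 without it (6.11 to 16.4, median 11.96), beside 2.5% of all genes.

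Indacaterol had an averaged effect on BCL6 of 0.49 ± 0.13 at 1 h (adjusted p = 0.0113) and 0.77 ± 0.13 at 2 h (adjusted p = 6.05e-07). With the replicate block this effect also passed at 6 h (0.35, adjusted p = 1.2e-05) and 18 h (0.40, adjusted p = 6.09e-05). At 1 h it was 0.51 without replicate 1 (adjusted p = 0.0557), 0.44 without replicate 2 (adjusted p = 0.26) and 0.47 without replicate 4 (adjusted p = 0.0934). At 2 h the excess over vehicle was 31.1 with both agents, against 24.0 with mometasone and 8.17 with indacaterol, which sum to 32.2. The interaction at 2 h was -0.84 ± 0.26 and did not pass (adjusted p = 0.102). With the replicate block it passed (adjusted p = 1.91e-06). At 1 h, replicate 3 stood high in BCL6 both with carbachol, at 35.9 where the other libraries ran from 9.10 to 11.6, and with vehicle, at 19.2 where they ran from 5.18 to 8.55. The averaged carbachol effect on BCL6 at 1 h was 0.38 ± 0.13 (adjusted p = 0.761). With the replicate block it was 0.38 ± 0.07 and passed (adjusted p = 0.000124).

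**Figure D4:**
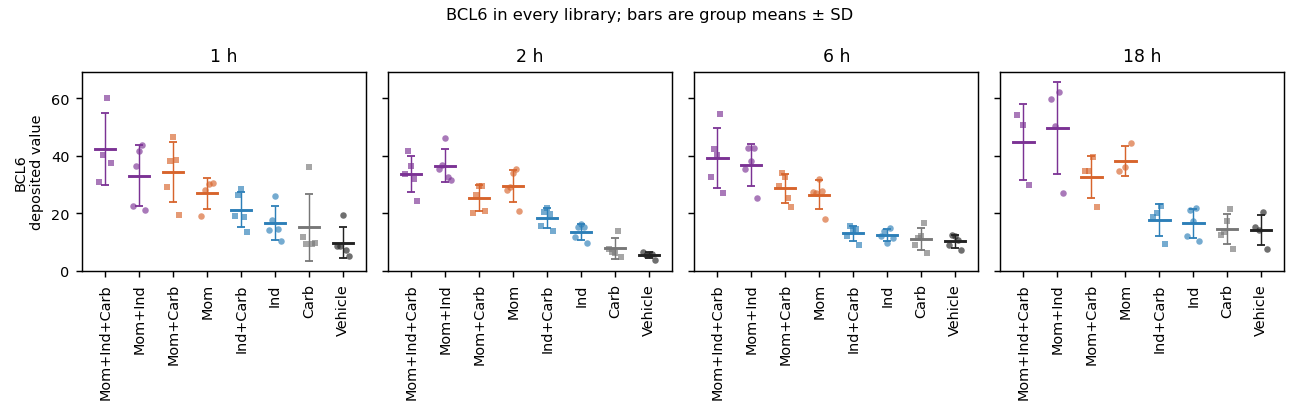
BCL6 in every library (points) by treatment and time, as deposited values on linear axes that start at 0, with group means and SD as bars. Squares are treatments with carbachol. At 2 h the means are 36.5 with mometasone plus indacaterol, 29.4 with mometasone and 13.6 with indacaterol, against 5.39 with vehicle.

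Without any agent the 9 genes did not change significantly over time in the fit without a replicate block. Vehicle at 2, 6 and 18 h against vehicle at 1 h gave 0 calls in limma among them, beside 0.0135%, 0.324% and 0.121% of all genes, with 1, 1 and 3 of the 9 at an unadjusted p under 0.05. BMF had the largest of these differences, -0.88 ± 0.29 at 18 h (adjusted p = 0.279). Vehicle held 0.97, 2.28, 0.87 and 0.88 at 18 h, against 5.17, 1.86, 2.93, 2.76 and 3.07 at 1 h. The replicate block was fitted within each time, so with it vehicle was compared between times at the level of replicate 1. The BMF estimates were then -0.76 at 6 h and -1.53 at 18 h. These are not differences of group means, and vehicle had no replicate 1 at 18 h. They are therefore not read as a fall.

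Other genes of the pathway were read from lists of regulators. For the genes named from them, the shares of all genes called for each agent and time are those given above. Among 6 tested inhibitors of caspases, BIRC3 (cIAP2), CFLAR (FLIP) and BIRC2 (cIAP1) rose with mometasone at 2, 6 and 18 h. At 6 h BIRC5, BIRC6 and XIAP fell. Of all genes, 4.98%, 18.4% and 17.6% rose at 2, 6 and 18 h, and 14.6% fell at 6 h. BIRC3 had an averaged mometasone effect of 1.47, 2.81, 2.88 and 2.45 at the 4 times (adjusted p of 9.17e-31 or smaller at 2, 6 and 18 h, and 3.32e-17 at 1 h). At 2 h its 20 libraries with mometasone (30.2 to 55.5) lay above the 20 without it (2.51 to 9.50). Such ranges did not overlap for 0.452% of all genes. CFLAR, which blocks caspase-8 at death receptors, had 0.55, 0.93, 1.22 and 1.27. The list's median at 6 h was 0.20, against 0.02 over all genes.

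Among 11 tested other BCL2-family genes at 18 h, BOK (-0.63 ± 0.07), BID (-0.42 ± 0.11), BAD (-0.37 ± 0.10) and BAK1 (-0.13 ± 0.04) fell with mometasone and BCL2L13 rose (0.19 ± 0.08). That is 4 and 1 of 11, beside 13.8% and 17.6% of all genes, and the other 6, BNIP3 among them, did not pass. The list had a median of -0.13 against 0.05 over all genes. Among 11 apoptosome and caspase genes, CYCS (cytochrome c) fell with mometasone at 6 h (-0.63 ± 0.14), and CASP9, the initiator caspase of the mitochondrial route, rose with indacaterol at 1, 2 and 6 h (0.76, 1.68 and 0.42). At 2 h CASP9 was at 31.2 to 53.7 in the 20 libraries with indacaterol, against 10.4 to 14.7 in the 20 without it. These ranges did not overlap, beside 0.755% of all genes.

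Among 10 death-receptor genes, mometasone raised FAS by 1.18 ± 0.13 at 18 h (6.54 to 19.98 with it, against 1.54 to 7.44 without it) and indacaterol raised the TRAIL receptor TNFRSF10B at 1 and 2 h (0.38 and 0.70). The adaptor FADD fell with mometasone at all 4 times (-0.15, -0.20, -0.29 and -0.39) and with indacaterol at 1 and 2 h (-0.31 and -0.43). Of 7 genes upstream of BH3-only genes, FOXO1, a known activator of BCL2L11 in other cells, rose with mometasone at all 4 times (0.58, 1.92, 2.396 and 2.25), and FOXO3 rose at 2, 6 and 18 h (1.27, 1.46 and 0.98). FOXO1 also had a positive interaction of the 2 agents at 2 h (0.91 ± 0.20, adjusted p = 0.00285), while DDIT3 (CHOP) fell with mometasone at all 4 times and with indacaterol at 1 h (-0.40 ± 0.09), and rose with carbachol at 1 h (0.50 ± 0.09) and 2 h (0.42 ± 0.08). Of 4 tested BCL6 co-repressor genes, BCOR rose with indacaterol at 1 h (0.49 ± 0.08) and 2 h (0.81 ± 0.08), and with mometasone at 2 h (0.31 ± 0.08).

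Some cell-type markers were called with mometasone and with indacaterol as well. KRT7 rose at 2 h with mometasone (1.03 ± 0.28) and with indacaterol (1.01 ± 0.28), and KRT18 (-0.41 ± 0.09) and COL1A1 (-0.24 ± 0.06) fell with indacaterol at 6 h, as COL1A1 did at 18 h (-0.35 ± 0.07). At 2 h the epithelial sums overlapped, at 483 to 1020 with mometasone and 493 to 1130 without it. With mometasone at 6 h KRT7 rose (2.01 ± 0.28), and KRT18 (-0.52 ± 0.09), CDH1 (-0.40 ± 0.15) and COL1A1 (-0.34 ± 0.06) fell. The 6 h epithelial sums overlapped too, at 327 to 758 with mometasone and 513 to 841 without it. So did the fibroblast sums, at 481 to 889 and 654 to 941. At 18 h, of 6 epithelial markers 5 were tested, of which KRT8, KRT18 and CDH1 fell and KRT7 rose, and their summed value ran from 269 to 417 with mometasone and from 437 to 923 without it. Of 4 fibroblast markers COL1A1 and COL1A2 fell and PDGFRB rose at 18 h, and their sum ran from 385 to 647 with mometasone and from 685 to 937 without it. The leukocyte gene PTPRC, at 0.17 to 2.3 over all libraries, rose with mometasone at 6 h (0.27) and 18 h (0.34). At 1 h none of these markers was called and the epithelial sums overlapped, at 466 to 1170 with mometasone and 517 to 1310 without it. The part of these shifts in the changes of the BCL2-family genes was not tested.

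Finally, the genes with the most similar response were found by Pearson r over the 28 differences of a treated group from vehicle of the same time, which share their vehicle libraries. HRK was closest to ZFAND5 (r = 0.974), IRS2 (r = 0.971) and PDK4 (r = 0.961), and BCL6 to KLF9 (r = 0.966), ARID5B (r = 0.945) and PER1 (r = 0.94). PMAIP1 was closest to SHISA2 (r = 0.966), TNFAIP3 (r = 0.95) and KLF4 (r = 0.937), BCL2L1 to NANOS1 (r = 0.93), and BCL2L11 to DEPDC7 (r = 0.902). For MCL1, BMF, BCL2 and BBC3 the nearest genes were TENT5B (r = 0.909), CT75 (r = 0.945), GALNT3 (r = 0.967) and WBP1 (r = 0.815). Within the 9 genes, HRK and BCL6 had r = 0.848 and MCL1 and BCL2L1 r = 0.754, whereas BMF and BCL2 had r = -0.787. These are descriptions of the same libraries.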

How the data were processed

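BEAS-2B RNA was sequenced on an Illumina NextSeq from TruSeq libraries, per the labels' protocols. Per the submitters' processing notes, the tools included STAR 2.4.2a and bcl2fastq 2.17.1.14, with GRCh38 as the genome build. Not given in the sources used here are the program that made the values, its annotation, strand setting and scaling. The authors call the deposited values TPM, but their sums differ between libraries, so they were taken as a normalised signal as deposited, although the design had assumed TPM. The test is the same for both.

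Headings gave each column's treatment, replicate and time, and groups come from the labels. Left out were 10 columns, 4 that the authors marked as excluded and 6 (replicate 1) headed 8 h, a time in no label. At 18 h only indacaterol alone and carbachol alone had a replicate 1 library. Whether the columns headed 8 h are the missing replicate 1 libraries of 18 h is not stated. A gene was tested if 5 or more libraries had a value of 1 or more (14827 of 29273), on the log2(value + 1) scale. The fit used limma 3.58.1 (R 4.3.3, data.table package 1.17.8), in a single model with a mean for each of 32 groups and eBayes with a trend. Adjustment was Benjamini-Hochberg within each comparison and time, and the threshold was 0.05. The limma step was tested on simulated data. The genes, the pathway lists and the markers were chosen with earlier results of these data known. All 10 genes are named, and from each pathway list called genes among the 4 with the largest change in a comparison. BAK1, BCL2L13, BIRC5 and BIRC6 fall outside this rule and were named after their values were seen. Some genes of these lists are not reported here. The 3 genes with the highest Pearson r to a gene, or the first of them, are named as most similar. Values of overlapping genes cannot be told apart without knowing the use of strand, and GENCODE 29 places other genes over BCL2L11 (MIR4435-2HG), BMF (BMF-AS1), BCL2L1 (ABALON), BCL6, BCL2, BBC3 and MCL1.

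Alternatives were a pseudocount of 0.1, no filter, median ratio scaling (ratios 0.919 to 1.14), a replicate block, each time alone, leaving out libraries over 20% mitochondrial, and leaving out each replicate number. The interaction within treatments with or without carbachol was added after seeing the data. In their deviations from group means, same-numbered libraries of a time correlated at a median of 0.279, 0.382, 0.282 and 0.405 at 1, 2, 6 and 18 h. For libraries of different number the medians were -0.079, -0.091, -0.06 and -0.06. Of the same-numbered pairs, 107 of 127, 133 of 140, 118 of 140 and 87 of 99 exceeded 0.1. The labels do not say what a number shares, and the fit without a block did not use the numbers.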

Additional observations from a re-analysis of the deposited data

Results flagged for a closer look

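Of 300 groups of 4 or 5 libraries of a gene, 19 had a library far from the others, and chance alone sets 1 in about 20 groups apart. Replicate 3 of carbachol at 1 h was high in MCL1 (186), PMAIP1 (8.94) and BCL6 (35.9), and replicate 3 of vehicle at 1 h was high in BCL6 (19.2). Replicate 5 of mometasone plus indacaterol at 18 h was low in MCL1 (107) and PMAIP1 (3.38), and replicate 5 of vehicle at 18 h was low in MCL1 (68.3). Replicate 5 was also low in PMAIP1 with mometasone plus carbachol at 1 h (5.87) and with mometasone plus indacaterol at 2 h (13.3), where it was high in BBC3 (17.2). With all 3 agents at 1 h, replicate 1 was low in PMAIP1 (13.7) and high in BIK (0.32).

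The other libraries apart were replicate 3 in HRK with indacaterol at 6 h (1.73), in PMAIP1 with mometasone at 6 h (8.46), in BCL2 with all 3 agents at 6 h (1.87) and in BMF with vehicle at 18 h (2.28). In BIK they were replicate 5 with mometasone plus carbachol at 2 h (0.65), replicate 5 with all 3 agents at 6 h (0.91) and replicate 1 with carbachol at 18 h (0.0). What set these libraries apart was not tested.

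Effects that differed by a test of the difference itself were the interaction of mometasone and indacaterol on HRK at 1 h (1.53), 2 h (1.87) and 6 h (1.21), and effects that differed between late (6 and 18 h) and early (1 and 2 h) times. For mometasone the late minus early difference was 0.39 for BBC3, -0.52 for BCL2, 0.43 for BCL2L11, 0.59 for BMF, 0.48 for HRK and -0.85 for PMAIP1. For indacaterol it was -0.60 for BCL2L11, -0.89 for HRK, 0.33 for MCL1 and -0.56 for PMAIP1. The MCL1 difference did not pass without replicate 1, 2 or 3 (adjusted p in limma between 0.0596 and 0.17).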

How the results depend on the processing

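Of 137 changes called for the 9 genes over all comparisons, 95 stayed called in every alternative run, 42 lost the call in at least 1, and 0 changed sign. By setting, the losses were highest on leaving out replicate 2 (35) and replicate 4 (32), followed by replicate 1 (21), each time fitted alone (16), replicate 3 (15) and no filter on low values (10). The pseudocount of 0.1 lost 0 calls. The cause of these losses was not tested beyond there being fewer libraries or genes.

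The replicate block uses numbers whose meaning the labels do not give. With it, calls for the averaged mometasone effect were 31, against 26 without it. The block added BCL2L11 at 1 and 2 h, BBC3 at 2 and 6 h and PMAIP1 at 18 h. For indacaterol it added BMF at 1 and 2 h, BCL6, HRK and PMAIP1 at 6 h, and BCL2L1, BCL2L11 and BCL6 at 18 h. Calls for the averaged indacaterol effect were 21 with the block, against 13 without it. They were 3 against 0 for carbachol (BCL6, MCL1 and PMAIP1 at 1 h) and 7 against 4 for the late minus early effect of indacaterol. For the interaction of mometasone and indacaterol they were 11 against 3. The block added BBC3, BCL2, BCL2L11 and BCL6 at 1 h, BBC3, BCL2L11 and BCL6 at 2 h and BMF at 6 h. Against vehicle, calls were 12 with the block against 4 without it for indacaterol, and 14 against 9 for indacaterol plus carbachol. Vehicle over time gave 2 calls with the block (BMF at 6 and 18 h) against 0 without it. There the block compares times at the level of replicate 1 and not by group means, so the 2 fits do not estimate the same difference. Leaving out each replicate in turn gave 12 to 22 calls for mometasone plus carbachol against vehicle (20 with all) and 3 to 8 for indacaterol plus carbachol against vehicle (9 with all).

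Depth is unknown, so how far it limits BIK, BCL2 and BMF, which have low values, cannot be stated.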
